A study of Mus musculus with 4 samples.

Results

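The mouse mitochondrial genome encodes 13 proteins, and all 13 of these genes have a row whose symbol begins with mt- in the deposited matrices of 30828 genes. Every row with that prefix was taken. In the GENCODE M21 annotation, which holds all 13 identifiers with the same version, chromosome M carries 37 genes. The 22 tRNA and 2 rRNA genes among them have no row in these matrices, so mt- UMIs here are mRNA counts alone. A UMI (unique molecular identifier) counts 1 captured RNA molecule of a droplet barcode.

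Cells from mouse testes, taken at postnatal day 8, were profiled by a droplet method that reads the 3′ ends of polyadenylated RNA. In the *Cnot3*-cKO mice (*Cnot3* flox/flox; *Ddx4*-creER), 4-hydroxytamoxifen (4-OHT) activates a Cre recombinase driven by the germ cell gene *Ddx4*, which deletes the floxed gene in germ cells. The animals labelled wild-type, here control, carry a 4-OHT treatment in their labels too, begun at postnatal day 1 as in *Cnot3*-cKO. The last day of injection differs between all 4 labels and is later in both *Cnot3*-cKO labels than in both control ones, while the study's methods give a single schedule, so whether the length of treatment differed between genotypes is not settled. Suspensions were sorted by CD9 and THY1 to enrich germ cells, so the somatic cells described here are those that passed the sort. The labels list 2 samples per genotype, but each genotype has 1 matrix that merges both with no map from barcode to sample. The study used 2 sequencing instruments, and whether the 2 samples are separate suspensions or runs of 1 library is not stated. All comparisons are thus between 1 control and 1 *Cnot3*-cKO library. They have no replicate check and no test, and the intervals given, at 95%, cover counting error only.

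Mitochondrial DNA is transcribed from both strands as long precursors. These are cut, mostly at tRNAs, into separate mRNAs, most of which receive short poly(A) tails. The heavy-strand precursor gives nearly all of the mRNAs, and the light strand gives *mt-Nd6*. Whether the *mt-Nd6* mRNA carries such a tail was not examined here. The encoded proteins are core subunits of the respiratory chain and of ATP synthase, assembled with many nuclear-encoded partners. In single-cell data a high share of mt- UMIs is commonly used to remove damaged cells, and the usual level of that share differs between tissues.

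Since the method reads 3′ ends, the ends of the transcripts are shown for a few members. In the GENCODE M21 transcripts (GRCm38), *mt-Co3*, *mt-Nd4* and *mt-Cytb* have lengths of 784, 1378 and 1144 bases, 1 more than a multiple of 3, and end on the single T of an unfinished stop codon, which the poly(A) tail completes. The other 10 end on a whole stop codon as annotated. The annotated intervals of *mt-Nd1* and *mt-Nd2* each overlap a tRNA gene by 2 bases, and *mt-Atp6* overlaps *mt-Co3* by 1. The ends of *mt-Co3*, the member with the most UMIs in germ-like barcodes, of *mt-Cytb*, with the lowest germ-like ratio between genotypes, and of the light-strand gene *mt-Nd6* read as follows, with the stop codon or its T in capitals:
mt-Co3: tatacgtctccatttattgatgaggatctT
mt-Cytb: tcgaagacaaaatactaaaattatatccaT
mt-Nd6: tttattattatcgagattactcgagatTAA
These lie at chrM:9361-9390 and chrM:15259-15288 on the plus strand, and chrM:13552-13581 on the minus strand. *mt-Nd6* is the sole minus-strand member, and its last 14 bases overlap the end of *mt-Nd5* on the other strand. The pair *mt-Atp8* and *mt-Atp6* overlaps by 43 bases, and *mt-Nd4l* and *mt-Nd4* by 7. The next lines show where the downstream reading frame begins inside the upstream gene, with its start codon in capitals:
mt-Atp8 around the mt-Atp6 start: cttgagaattaaaATGaacgaaaatctatt
mt-Nd4l around the mt-Nd4 start: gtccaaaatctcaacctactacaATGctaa
These stretches are chrM:7914-7943 and chrM:10144-10173. As background, each pair is kept on a shared mRNA in mammals, with the downstream gene nearest the tail. UMIs of *mt-Atp8* and *mt-Nd4l* cannot all be told from those of their partners, and how many of the shared mRNAs they count is not known.

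Nuclear copies of mitochondrial DNA limit the identity of the rows in another way. Windows of 90 bases were searched on both strands of all annotated nuclear transcripts. For *mt-Co2*, *mt-Atp6*, *mt-Co3*, *mt-Nd3* and *mt-Nd4l*, between 97.7% and 99.9% of windows had an identical match. For *mt-Nd4* the share was 61.1%, for *mt-Co1* 33.4%, for *mt-Nd2* 4.21% and for *mt-Nd5* 0.346%. No window of *mt-Nd1*, *mt-Atp8*, *mt-Nd6* or *mt-Cytb* had one. Most matches lie in a run of pseudogenes on chromosome 1, from *Gm28439* at 24611535 to the end of *Gm29216* at 24616197. None of the 11 pseudogenes with a match has a row in the matrices, so a read from such a copy could only be counted in an mt- row or dropped. How the authors' aligner placed such reads is not given in the sources used here, and the rows with copies are uncertain to that extent.

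Barcodes with at least 8000 UMIs were grouped by clustering without the mt- genes, so that a class could not be set by the measure. Germ-like barcodes numbered 1389 in control and 597 in *Cnot3*-cKO, Sertoli-like 2892 and 4344, stromal 3710 and 3882, macrophage-like 56 and 63, and endothelial-like 38 and 39. A further 250 and 307 fell in unnamed clusters. The stromal class joins stroma-like and peritubular myoid-like clusters. Germ markers such as *Ddx4* and *Dazl* summed to 2883 and 3013 CPM in the germ-like class, on a scale where 10000 CPM is 1% of all UMIs. They summed to 12.5 to 27.0 CPM in Sertoli-like and stromal barcodes. Sertoli markers summed to 10133 and 10333 CPM in the Sertoli-like class. Control macrophage-like barcodes also held 429 CPM of germ and 490 CPM of T cell markers, against 14.96 and 56.3 in *Cnot3*-cKO. Sertoli markers were at 636 and 754 CPM in macrophage-like and 1447 and 806 CPM in endothelial-like barcodes, and stroma markers at 1439 to 1810 CPM in these classes of both libraries. The part of these other cells in the values of both small classes was not tested. In germ-like barcodes *Cnot3* had 71.1 CPM in control against 39.8 in *Cnot3*-cKO, and at 63.7 and 67.5 in Sertoli-like ones. Leydig markers summed to at most 22.0 CPM in any class. Erythroid markers were at 448 CPM in *Cnot3*-cKO germ-like barcodes through 1 barcode, and at 2.26 without it. Both libraries shared 18 of these barcodes.

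The mt- share separated germ-like and Sertoli-like barcodes from the other 3 classes far more than it separated the genotypes. In germ-like barcodes the 13 genes made up 10.7% of UMIs in control and 9.88% in *Cnot3*-cKO. Sertoli cells, the somatic nurse cells of the seminiferous cords, had 10.1% and 10.4%. Stromal barcodes had 5.40% and 5.31%. Macrophage-like barcodes had 5.81% and 5.73%, and endothelial-like ones 6.28% and 5.92%. Germ-like and Sertoli-like barcodes thus lay within 1 percentage point of each other in both libraries, and the other 3 classes lay well below them.

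Between genotypes, *Cnot3*-cKO relative to control gave a log2 ratio of -0.11 (-0.12 to -0.11) in germ-like barcodes, or 0.924-fold. It was 0.047 (0.045 to 0.048) in the Sertoli-like, -0.024 (-0.027 to -0.022) in the stromal, -0.020 in the macrophage-like and -0.084 in the endothelial-like class. The germ-like class alone held 6160723 and 2624964 mt- UMIs, so these intervals are narrow. They treat each UMI as independent and say nothing of how barcodes or animals of a genotype differ. As means over barcodes the germ-like shares were 12.0% and 11.8%, a log2 ratio of -0.028, outside the interval. Of the pooled ratios, only the Sertoli-like one was above 0. The germ-like ratio turned to 0.38, with shares of 11.8% and 15.3%, when UMIs and genes were bounded at the mean plus 2 SD of each library. The study's own filter also bounds UMIs and genes at 2 SD above and below the mean, after removing cells over 10% mitochondrial UMIs. Here the upper bounds were applied without that limit. Among germ-like barcodes those bounds kept 56.7% in control and 27.8% in *Cnot3*-cKO, the shallower ones, against at least 99.1% of Sertoli-like and stromal barcodes.

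Over single barcodes the germ-like class was also the most spread. Its median share was 10.4% in control and 9.24% in *Cnot3*-cKO. The lowest and highest barcodes were at 3.78% and 98.6% in control, and at 0.0984% and 96.0% in *Cnot3*-cKO. In the Sertoli-like class the medians were 10.04% and 10.47%, and in the stromal class 5.19% and 5.16%. The genotypes overlapped in every class.

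A threshold of 10%, the one the study applied, falls in the middle of the germ-like and Sertoli-like distributions. Among germ-like barcodes, 55.9% (53.3% to 58.6%) exceeded it in control and 39.0% (35.1% to 43.1%) in *Cnot3*-cKO. In the Sertoli-like class 51.1% and 60.1% exceeded it. In the stromal class 0.916% and 0.696% did. The order of the genotypes was therefore opposite in germ-like and Sertoli-like barcodes. A threshold of 20% was exceeded by 3.96% and 6.03% of germ-like barcodes and by at most 0.378% of the Sertoli-like and stromal ones.

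**Figure D1:**
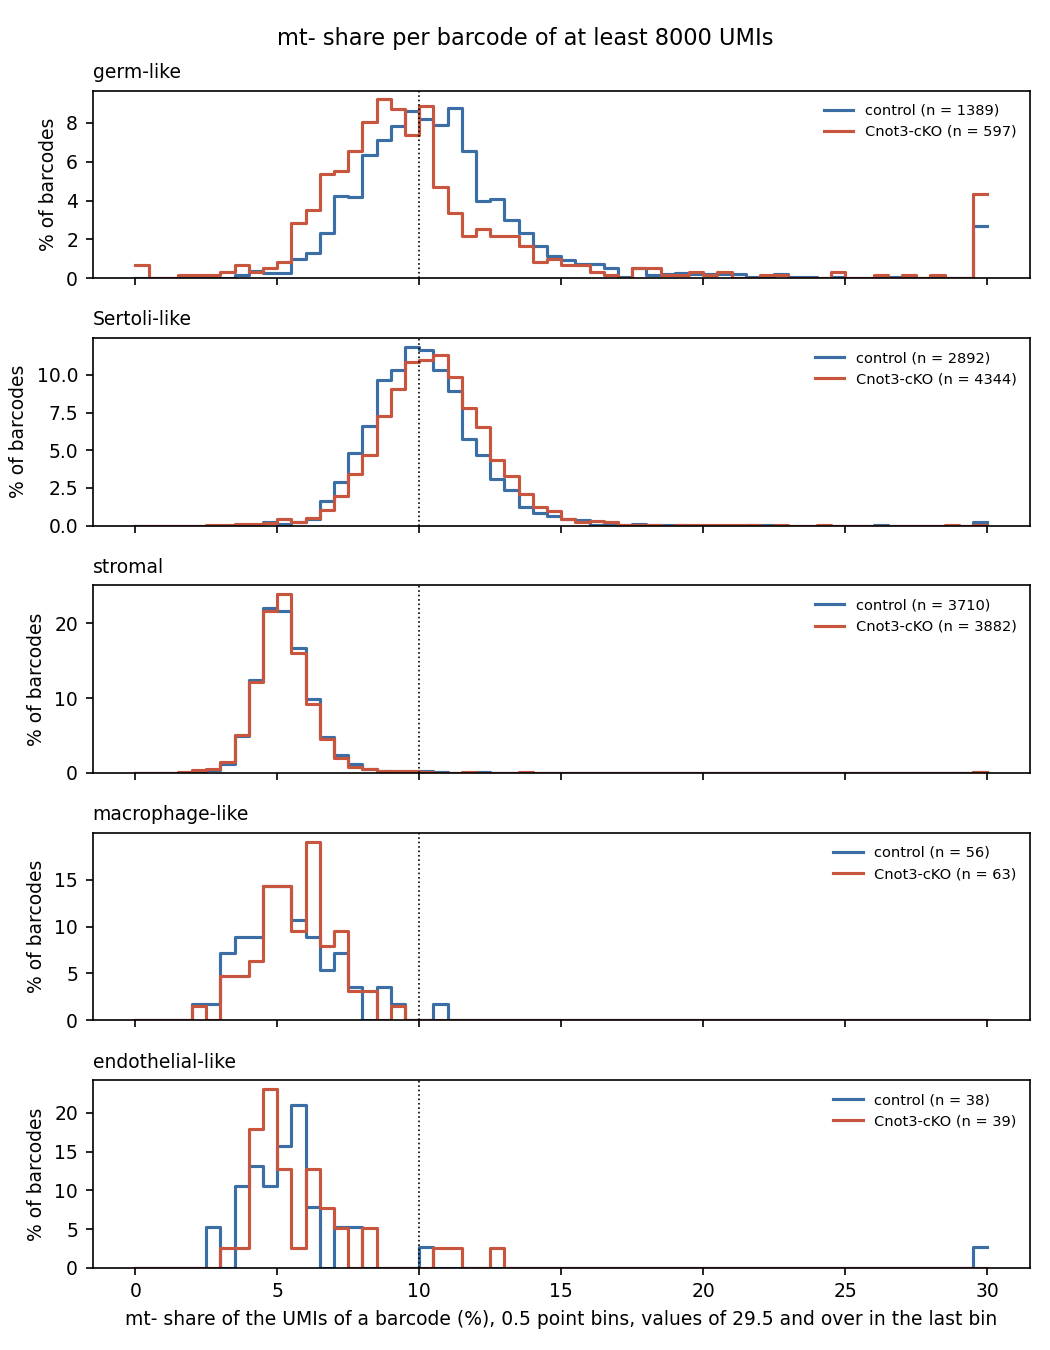
Share of mt- UMIs per barcode (x axis, percent, in bins of 0.5 points) against the percent of barcodes of the class (y axis), in control (blue) and Cnot3-cKO (red), 1 panel per class. The dotted line is at 10%: it crosses the middle of the germ-like and Sertoli-like curves and lies to the right of nearly all stromal barcodes.

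The share also depended on how deep a germ-like barcode was. At 8000 to 12000 UMIs the pooled share was 36.2% in 65 control and 34.2% in 37 *Cnot3*-cKO barcodes. At 48000 UMIs or more it was 9.81% and 8.73%. Control was also higher from 12000 to 16000 and from 32000 to 48000 UMIs. Between these the order was reversed, with 12.7% in control and 15.3% in *Cnot3*-cKO from 16000 to 24000 UMIs. From 24000 to 32000 UMIs the shares were 11.7% and 12.3%. The direction of the germ-like difference thus varied with depth. Barcodes with over 50% mt- UMIs numbered 23 and 15 in the germ-like class, with median depths of 8844 and 9176 UMIs against 41564 and 44932 for the class. Outside it there was 1 such barcode, in the control stromal class. With both libraries weighted to the depths of control, an alternative chosen after seeing the data, the germ-like log2 ratio was -0.089.

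The order of the genes was much the same in every class. *mt-Co3*, *mt-Atp6*, *mt-Co1* and *mt-Co2* together took 71.2% to 78.4% of mt- UMIs over the 5 classes and both libraries. *mt-Nd4l*, *mt-Atp8* and *mt-Nd6* together took 0.379% to 0.519%. Per kilobase of transcript, *mt-Atp6* ranked highest, followed by *mt-Co3*, *mt-Co2* and *mt-Co1*, in all 5 classes of both libraries, and *mt-Nd5* and *mt-Nd6* ranked last. In control germ-like barcodes this ran from 34236 CPM per kilobase for *mt-Atp6* to 80.7 for *mt-Nd6*. A UMI is 1 molecule read at its 3′ end and need not scale with transcript length, so this is not a ranking of molecules. By UMIs in these barcodes, *mt-Co3* (23957 CPM) was above *mt-Atp6* (23314) and *mt-Co1* (19783) above *mt-Co2* (15329). *mt-Nd5* (614 CPM) was above *mt-Nd4l* (238) and *mt-Atp8* (126).

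The largest subunit group is that of complex I, the NADH dehydrogenase that feeds electrons into the chain, with 7 mt- members. In germ-like barcodes *mt-Nd1*, which helps form the ubiquinone site, had 5238 CPM in control against 4847 in *Cnot3*-cKO. *mt-Nd2* was at 3936 and 3412 CPM, *mt-Nd4* at 4776 and 4051, and *mt-Nd5* at 614 and 582, all subunits of the proton-pumping membrane arm. *mt-Nd3* was at 2175 and 2094 CPM. *mt-Nd4l* and *mt-Nd6* went the other way, at 238 and 256 CPM and at 41.9 and 52.0 CPM. Summed over the 7 genes, the level was 17019 and 15293 CPM.

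Complex III, which passes electrons to cytochrome c, has 1 mt- member, cytochrome b. In germ-like barcodes *mt-Cytb* had 7467 CPM in control against 5972 in *Cnot3*-cKO. The log2 ratio, -0.32 (-0.33 to -0.31), was the lowest ratio of the 13 genes. Complex IV, cytochrome c oxidase, has its catalytic core from *mt-Co1*, *mt-Co2* and *mt-Co3*. *mt-Co1* was at 19783 and 20713 CPM, a log2 ratio of 0.066, while *mt-Co2* was at 15329 and 14178 and *mt-Co3* at 23957 and 21474. Of ATP synthase, *mt-Atp6*, a subunit of the proton channel, was at 23314 and 21088 CPM and *mt-Atp8* at 126 and 128.

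A difference in size was read from a log2 ratio beyond 0.32 in either direction, the fold used throughout. In germ-like barcodes 1 of the 13 genes was lower past it in *Cnot3*-cKO and 0 were higher, where 12.2% and 18.1% of all genes with at least 100 UMIs were. That gene was *mt-Cytb*, and it lay at the edge of the fold: without the 1 germ-like barcode that held over 1% erythroid UMIs, its ratio came just inside. *mt-Nd6*, at 0.31 (0.21 to 0.41), lay just inside the fold on the other side. Counting intervals lay below 0 for 9 genes and above 0 for 3, *mt-Co1*, *mt-Nd4l* and *mt-Nd6*. Under the upper bounds on UMIs and genes the ratio of *mt-Cytb* turned to 0.24.

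Both germ-like clusters were also read apart. The first, with *Gtsf1*, *Mael* and *Stk31* among its leading genes, held 962 and 467 barcodes and had mt- shares of 11.02% and 9.83%, a log2 ratio of -0.17. There *mt-Cytb* was at 7347 and 5633 CPM (-0.38), *mt-Nd4* at -0.32 and *mt-Nd2* at -0.26. The second, led by *Crabp1*, *Dazl*, *Sycp1* and *Stra8*, held 427 and 130 barcodes and had shares of 9.89% and 10.1%, a ratio of 0.030. There *mt-Cytb* was at 7765 and 7352 CPM (-0.079) and *mt-Nd3* at 2136 and 2507 (0.23). *mt-Nd6* was higher in *Cnot3*-cKO in both, at 44.1 and 53.3 CPM and at 36.5 and 46.6. Clusters were formed on the nuclear genes of these same barcodes, and the difference between them was not tested.

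In Sertoli-like barcodes 0 of 13 genes passed the fold in either direction, where 5.25% of all genes were higher and 3.58% lower. Their log2 ratios ran from -0.024 for *mt-Cytb* to 0.30 for *mt-Atp8*. In stromal barcodes 0 of 13 passed it too, beside 4.03% higher and 5.41% lower over all genes, and the ratios ran from -0.13 for *mt-Nd2* to 0.27 for *mt-Atp8*. The 3 genes with the fewest UMIs were among the 4 highest ratios in both classes, with *mt-Nd3* as the other in Sertoli-like (0.22) and stromal (0.069) barcodes. *mt-Atp8* was at 112 and 137 CPM in Sertoli-like and 53.9 and 65.2 in stromal barcodes, and *mt-Nd4l* at 179 and 216 and at 112 and 127. *mt-Nd6* was at 118 and 135 and at 61.5 and 69.5 CPM. The ratios of *mt-Atp8*, *mt-Nd4l* and *mt-Nd6* stayed above 0 under every alternative run for both classes.

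The few macrophage-like barcodes gave *mt-Nd2* at 2215 and 2827 CPM, past the fold, and *mt-Atp8* at 81.3 and 64.3 CPM, past it downward with an interval of -0.79 to 0.11. Over all genes 21.3% were higher and 17.2% lower in this class. In endothelial-like barcodes *mt-Atp8* alone was past the fold, lower, on 71 and 46 UMIs, beside 14.4% lower and 12.7% higher over all genes, again with an interval that spans 0.

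**Figure D2:**
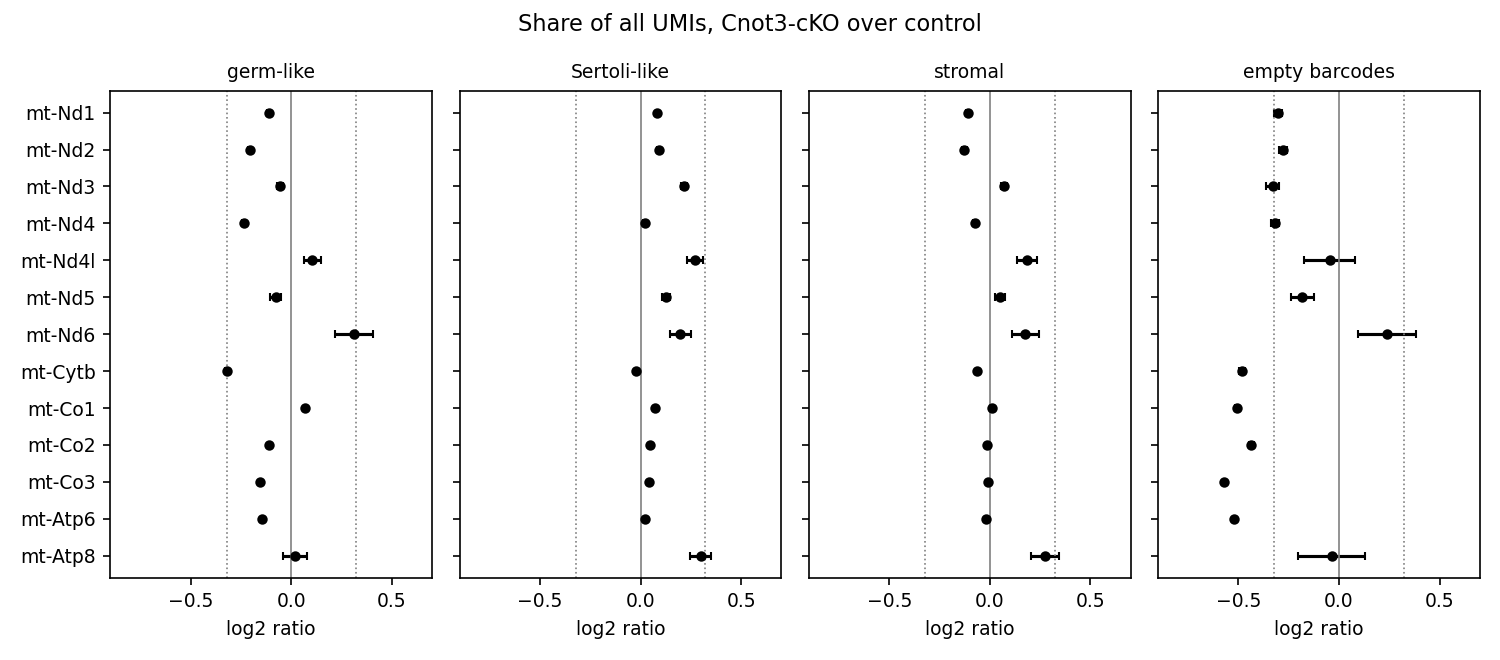
Log2 ratio of the share of all UMIs, Cnot3-cKO over control (x axis), for each mt- gene (y axis), in germ-like, Sertoli-like and stromal barcodes and in empty barcodes of at most 100 UMIs. Bars are counting intervals at 95% and dotted lines mark the fold used. mt-Cytb has the lowest germ-like value and mt-Nd6 the highest, while 10 of the 13 genes lie below 0 beyond their intervals in empty barcodes.

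The make-up of the mt- UMIs was compared between genotypes and between classes. Moving from control to *Cnot3*-cKO, 2.65 points of 100 mt- UMIs changed gene in germ-like barcodes, 0.888 in Sertoli-like, 1.03 in stromal, 1.85 in endothelial-like and 3.27 in macrophage-like ones. Between germ-like and stromal barcodes of 1 library, 6.17 points did so in control and 7.55 in *Cnot3*-cKO. Between Sertoli-like and macrophage-like barcodes it was 2.59 and 2.54 points, less than between the genotypes within the germ-like or macrophage-like class. In germ-like barcodes *mt-Co1* took 18.5% and 20.95% of mt- UMIs and *mt-Cytb* 6.98% and 6.04%. In stromal barcodes *mt-Co1* took 14.7% and 15.1% and *mt-Cytb* 9.88% and 9.61%, and these 2 genes had the widest gaps between both classes. *mt-Co2*, *mt-Atp6* and *mt-Co3* each varied by at most 1.10-fold over the 5 classes and both libraries.

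**Figure D3:**
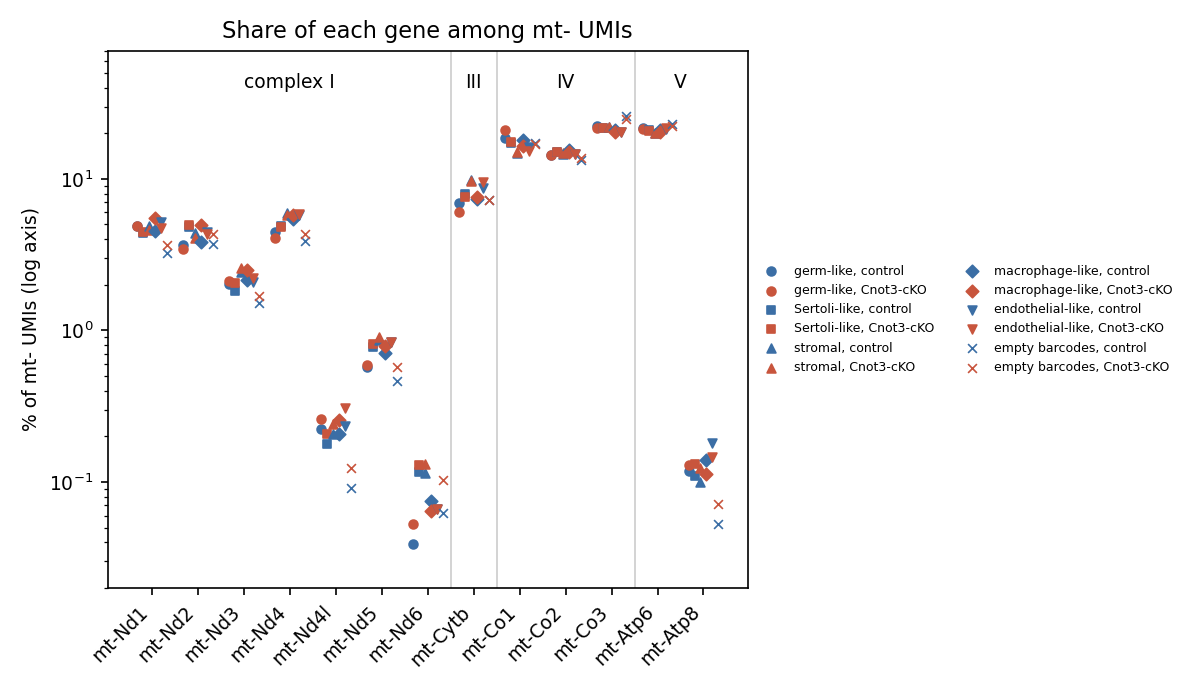
Percent of mt- UMIs taken by each gene (y axis, log scale), ordered by complex (x axis), with 1 symbol per class and library (control blue, Cnot3-cKO red). mt-Nd6 spans the widest range, from 0.0392% in control germ-like to 0.131% in Cnot3-cKO stromal barcodes, and mt-Co2 the narrowest.

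*mt-Nd6*, a membrane-arm subunit of complex I, differed most between classes. It stood at 41.9 and 52.0 CPM in germ-like against 118 and 135 CPM in Sertoli-like barcodes, a log2 ratio of -1.49 in control and -1.38 in *Cnot3*-cKO. The total of the 13 genes gave 0.081 and -0.080 in the same comparison. In control, *mt-Nd4l* was past the fold upward and *mt-Nd5* and *mt-Nd6* downward, 1 and 2 of 13, where 46.7% and 35.8% of all genes were. In *Cnot3*-cKO 0 were higher and 4 were lower (*mt-Nd2*, *mt-Nd5*, *mt-Nd6* and *mt-Cytb*), where 43.3% and 39.8% of all genes were. *mt-Nd6* was also at 43.5 and 37.0 CPM in macrophage-like and 41.3 and 39.4 in endothelial-like barcodes, on 21 to 54 UMIs each. In stromal barcodes it followed the total, with a log2 ratio to Sertoli-like of -0.93 and -0.96 where the total had -0.91 and -0.98. The method captures polyadenylated RNA, and how much of the *mt-Nd6* mRNA it captured in each class was not tested.

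The low germ-like value of *mt-Nd6* held under the 13 alternatives run for both classes, with log2 ratios to Sertoli-like of -1.72 to -1.16 in control and -1.62 to -0.82 in *Cnot3*-cKO. Among them, clustering at resolution 1.0 left both ratios unchanged and is no separate check. In control, leaving out erythroid barcodes and weighting to control depths could not change the ratio. No control barcode of these classes passed the erythroid limit, and control was its own reference for depth. The weakest, -0.82, came with the upper bounds that kept few *Cnot3*-cKO germ-like barcodes. Empty barcodes held *mt-Nd6* at 102 and 120 CPM, above the germ-like level. Free RNA, estimated from somatic markers, was 1.97% and 2.23% of germ-like UMIs. The germ-like and Sertoli-like classes differ in depth too, with medians of 41564 and 13301 UMIs in control, and the part of depth in this difference was not tested beyond the alternative of at least 15000 UMIs, which gave -1.72 and -1.61.

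**Figure D4:**
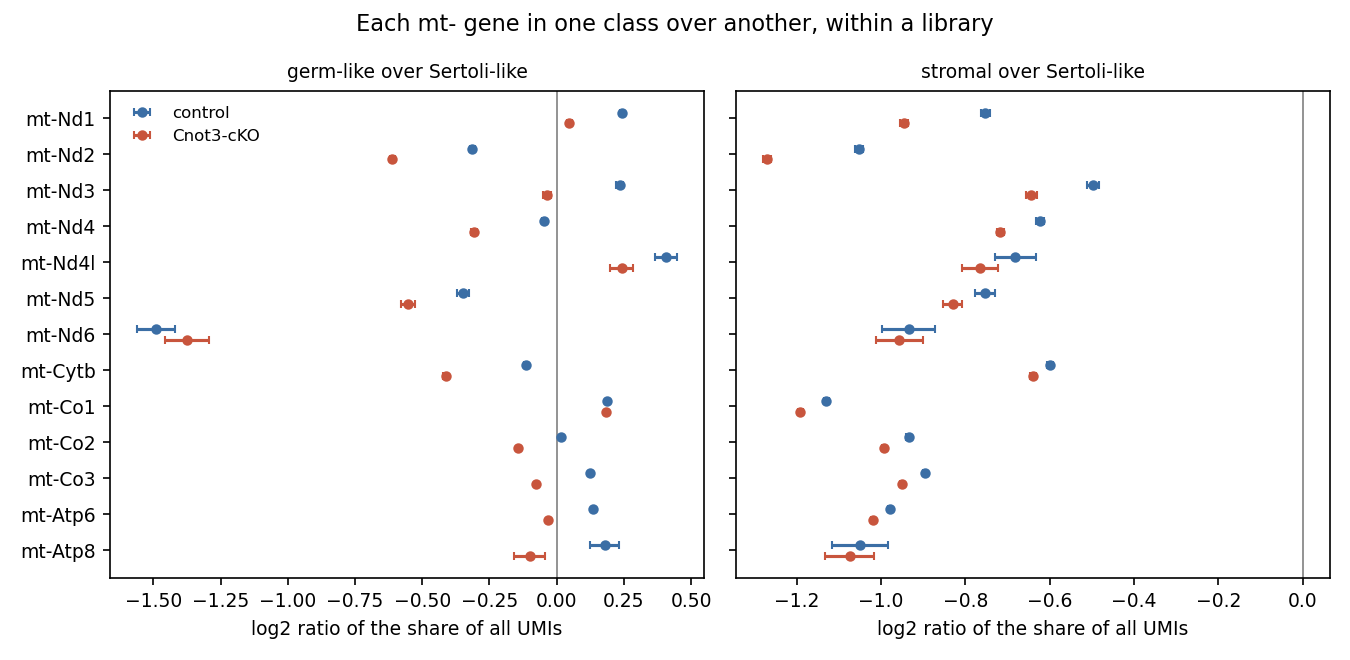
Log2 ratio of the share of all UMIs for each mt- gene (y axis) in germ-like (left) or stromal (right) over Sertoli-like barcodes of the same library (x axis), with counting intervals at 95%, control in blue and Cnot3-cKO in red. In germ-like barcodes mt-Nd6 lies apart from the other 12 genes, and in stromal barcodes all 13 lie below -0.49.

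All 13 genes were lower in stromal than in Sertoli-like barcodes past the fold in each library, where 45.7% of all genes were lower and 29.1% higher in control, and 49.0% and 27.4% in *Cnot3*-cKO. The ratios were uneven, from -0.50 for *mt-Nd3* to -1.13 for *mt-Co1* in control and from -0.64 for *mt-Cytb* and *mt-Nd3* to -1.27 for *mt-Nd2* in *Cnot3*-cKO.

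Within Sertoli-like and stromal barcodes *mt-Nd6* did not follow the total. Barcodes were split into 4 equal groups by their mt- share. This fixes that the total, and with it the genes with the most UMIs, is higher in the top group. The groups also differ in depth, with medians of 14243 UMIs in the lowest and 12253 in the highest of control Sertoli-like barcodes, and its part was not tested. Between the lowest and the highest group of Sertoli-like barcodes the other 12 genes differed by 1.44-fold to 1.78-fold in control and 1.38-fold to 1.70-fold in *Cnot3*-cKO. Among them, *mt-Nd4l* and *mt-Atp8*, which have few UMIs too, were at 1.44-fold and 1.46-fold in control and 1.47-fold and 1.38-fold in *Cnot3*-cKO. *mt-Nd6* was at 130 and 117 CPM in these control groups (0.904-fold) and at 143 and 128 in *Cnot3*-cKO (0.901-fold). Stromal barcodes gave 0.893-fold and 0.924-fold for *mt-Nd6* and at least 1.31-fold for the other 12. In germ-like barcodes *mt-Nd6* was 1.61-fold and 1.73-fold higher in the top group, with the other 12 at 1.61-fold to 2.11-fold and 1.96-fold to 2.99-fold.

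Signs of RNA quality were read in the same classes. *Malat1*, a nuclear-retained RNA, was at 2207 and 2232 CPM in germ-like, 14646 and 18165 in Sertoli-like and 23589 and 27142 in stromal barcodes. Immediate early and heat shock genes, which respond to dissociation, summed to 215 and 356 CPM in germ-like barcodes and to 1003 and 2599 in stromal ones. Both values were higher in *Cnot3*-cKO in every class, and their part in the mt- values was not tested.

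The nuclear-encoded partners were compared through lists of subunits and regulators. Summed over complexes I, III, IV and V, 73 nuclear genes made up 28964 and 27323 CPM in germ-like, 25225 and 24689 in Sertoli-like and 21132 and 20098 in stromal barcodes. There were 3.69 and 3.62 mt- UMIs per nuclear subunit UMI in germ-like, 4.01 and 4.23 in Sertoli-like and 2.56 and 2.64 in stromal barcodes. By this ratio the Sertoli-like class lay above the germ-like one in both libraries, while by the total share it did so in *Cnot3*-cKO alone, and the stromal class was lowest of these 3 by either measure. By complex, germ-like barcodes of control had 1.79 for complex I, 2.57 for complex III, 7.09 for complex IV and 2.85 for complex V.

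Over all genes in germ-like barcodes, 18.1% were higher and 12.2% lower past the fold, and the counts of each list here stand beside these shares. In germ-like barcodes, 2 of 36 nuclear subunits of complex I were higher past the fold and 4 were lower, with a median log2 ratio of -0.052 beside 0.022 over all genes. The 2 highest were *Ndufv1* (234 and 304 CPM, 0.38), which carries the NADH site, and *Ndufb6* (0.33). The 2 lowest were *Ndufa1* (-0.40) and *Ndufa12* (-0.38). Of complex III, 1 of 9 was higher and 3 were lower (median 0.097), with *Uqcrfs1*, the Rieske iron-sulfur protein, at 81.6 and 109 CPM (0.42), *Uqcrc2* at 0.29, *Uqcr10* at -0.40 and *Uqcr11* at -0.37. Of complex IV, 1 of 12 was higher and 4 were lower (median -0.13), with *Cox7b* at 0.33, *Cox5a* at 0.032, *Cox7a2l* at 310 and 219 CPM (-0.50) and *Ndufa4* at -0.39. Of complex V, 0 of 16 were higher and 1 was lower (median -0.022), with *Atpif1*, the inhibitor of ATP hydrolysis, at 0.14, *Atp5c1* at 0.12, *Atp5l* at -0.33 and *Atp5e* at -0.24. Complex II has no mt- member, and 0 of its 4 subunits passed the fold: *Sdhb* was at 0.091, *Sdha* at 0.083, *Sdhc* at 0.023 and *Sdhd* at -0.28. In Sertoli-like and in stromal barcodes, with at least 100 UMIs, 0 subunits of any of the 5 complexes passed the fold.

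Of the genes that copy and transcribe mitochondrial DNA, 3 of 14 were higher in *Cnot3*-cKO germ-like barcodes and 0 were lower (median 0.075), beside 18.1% and 12.2% of all genes. *Polg2*, the accessory subunit of the DNA polymerase, was at 22.7 and 34.8 CPM (0.62), and *Polrmt*, the RNA polymerase, at 15.7 and 20.9 (0.41). *Twnk*, the helicase, was at -0.31, *Tfb2m* at -0.24 and *Tfam*, which packages the DNA, at 66.8 and 62.1 CPM (-0.11). Of the genes for processing and turnover of mitochondrial RNA, 1 of 22 was higher and 0 were lower (median -0.0079). *Elac2*, which trims tRNA ends from precursors, was at 65.3 and 87.4 CPM (0.42) and *Rexo2* at 0.31. *Mtpap*, the poly(A) polymerase, was at 18.6 and 15.97 CPM (-0.22) and *Fastkd5* at -0.23. *Lrpprc* and *Slirp*, partners that stabilise these mRNAs, were at 58.4 and 54.6 CPM (-0.096) and at 109 and 122 (0.16).

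Of the biogenesis regulators, 1 of 5 was higher and 2 were lower, again beside 18.1% and 12.2% of all genes for this and the next 3 lists, with *Gabpa* at 0.35, *Pprc1* at 0.28, *Esrra* at -0.53 and *Ppargc1b* at -0.58 on 84 and 26 UMIs. *Ppargc1a* had 59 and 17 UMIs and was under the minimum of 100. Of the stress response genes, 3 of 10 were higher and 1 was lower (median 0.19). *Asns* was at 30.1 and 46.8 CPM (0.64), *Atf4*, a regulator of that response, at 51.4 and 71.3 (0.47), *Trib3* at -0.67 and *Atf5* at -0.24. Of the nuclear-retained RNAs, 1 of 4 was higher, *Neat1* at 0.60 on 479 and 334 UMIs, with *Malat1* at 0.016, *Meg3* at -0.0056 and *Kcnq1ot1* at -0.076. Of the immediate early and heat shock genes, 7 of 8 were higher (median 0.64), with *Junb* (9.52 and 32.4 CPM) at 1.77, *Fos* (14.7 and 49.7 CPM) at 1.75, *Hspa1a* at 0.36 and *Dnajb1* at 0.19.

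Droplets without a cell carry free RNA, read here from barcodes of 100 UMIs or fewer, which numbered 2496289 (control) and 2091366 (*Cnot3*-cKO). They are called empty by this cut alone. A further 43044 and 29746 barcodes had over 100 and up to 500 UMIs, and whether those held a cell was not tested. In the barcodes of 100 UMIs or fewer, the mt- share was 16.4% of 6898140 UMIs in control and 11.7% of 7256716 in *Cnot3*-cKO, a log2 ratio of -0.49. By gene, 6 of 13 were lower past the fold and 0 were higher, where 5.75% and 34.6% of all genes were. *mt-Co3* was lowest, at 42835 and 28848 CPM (-0.57), followed by *mt-Atp6* (-0.52), *mt-Co1* (-0.51), *mt-Cytb* (-0.48) and *mt-Co2* (-0.44). *mt-Nd3* also passed the fold (-0.33). *mt-Nd6* was at 102 and 120 CPM (0.24).

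The gap differed with the depth of the empty barcodes. Those of 1 to 10 UMIs held 70.4% of the empty UMIs in control but 46.6% in *Cnot3*-cKO, and their mt- share was 19.3% and 16.8%, a log2 ratio of -0.21. Those of 11 to 100 UMIs had 9.30% and 7.26%, a ratio of -0.36. Both were thus smaller than the pooled -0.49, and both were below 0. For *mt-Co3* the ratios were -0.28 and -0.41 in these bins, and for *mt-Nd3* 0.024 and -0.27.

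Of the barcodes over 100 and under 8000 UMIs, most had up to 500 UMIs, and their shares were 10.53% in control and 12.2% in *Cnot3*-cKO. That is a log2 ratio of 0.21, opposite in direction to the barcodes of 100 UMIs or fewer. Those over 500 and up to 1000 UMIs had 41.2% in control and 27.6% in *Cnot3*-cKO, and those up to 2000 had 37.0% and 34.8%. Above that the share was lower with each step in depth, at 26.5% and 27.2% up to 4000 UMIs, 20.2% and 14.1% from there to 8000, and 8.57% and 8.30% beyond. Control was higher in 4 of these 6 steps, and *Cnot3*-cKO was higher up to 500 UMIs and between 2000 and 4000. The composition of the empty mt- UMIs leaned to *mt-Co3*, at 26.2% and 24.7% against 20.3% to 22.4% in the 5 classes.

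**Figure D5:**
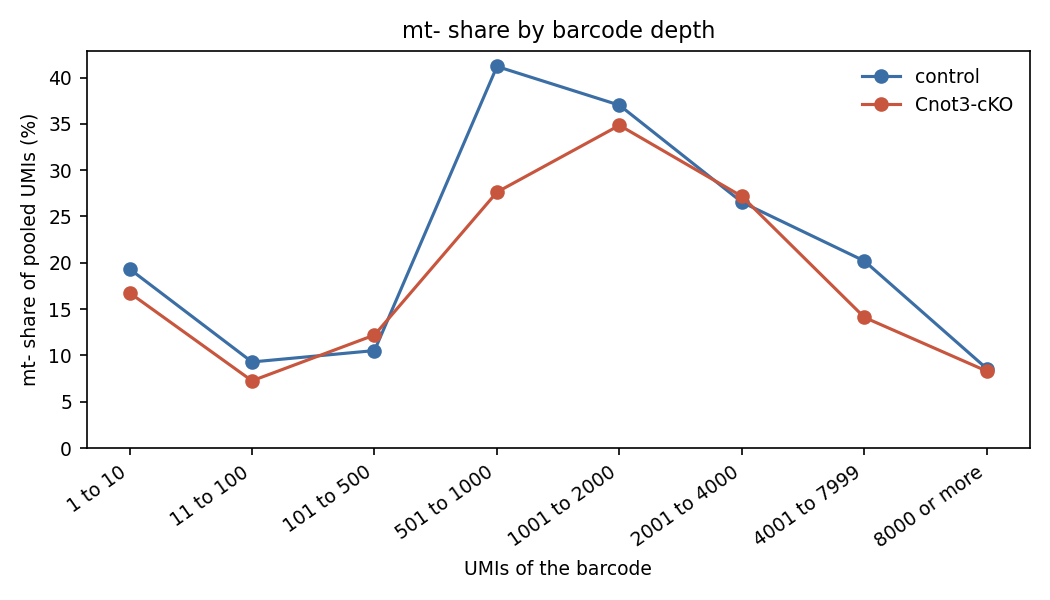
Share of mt- UMIs (y axis, percent of pooled UMIs) by the number of UMIs of the barcode (x axis, 8 bins), in control (blue) and Cnot3-cKO (red). The share peaks at 41.2% in control barcodes over 500 and up to 1000 UMIs, where Cnot3-cKO has 27.6%, and is 8.57% and 8.30% at 8000 or more.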

How the data were processed

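The authors deposited raw UMI counts per gene and barcode, 1 matrix per genotype, with every barcode listed and no cells called. The submitters' processing notes name Cell Ranger 3.0.1 and the build mm10, and how the aligner was set is not given in the sources used here. The matrices hold 181550221 UMIs in control and 168770743 in *Cnot3*-cKO.

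Here, barcodes of at least 8000 UMIs, with no mitochondrial limit, were clustered with scanpy 1.11.5 on 2500 variable genes other than mt- genes (30 principal components, 15 neighbours, Leiden resolution 0.5). A cluster was named from a marker list with at least 3 markers, each in at least 10% of its barcodes and raised at least 2-fold, and clusters with the level of 2 kinds of cell within 0.5 (log2) stayed unnamed. The naming rule was settled after the clusters were seen. The markers, members and gene lists were chosen with earlier results of these data known. Scrublet called 5.97% and 4.84% of barcodes doublets, which were kept except in 1 alternative.

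UMIs were summed per class and library. Shares have exact Clopper-Pearson intervals and log2 ratios exact conditional intervals, computed with scipy 1.17.1. A log2 ratio beyond 0.32 was counted as a difference in size, among genes whose UMIs in both libraries came to at least 100. The genes named are all mt- genes, the 2 highest and 2 lowest of each list in germ-like barcodes, and *Lrpprc*, *Slirp*, *Mtpap*, *Tfam*, *Polrmt*, *Ppargc1a*, *Malat1* and *Cnot3*. Free RNA was the median over barcodes of markers of other classes, divided by their share in empty barcodes. The ratio step was tested on simulated data, independent counts drawn from the pooled germ-like sums with known folds for some genes. Such counts meet the assumption behind the intervals. They hold no difference between barcodes or animals, so they cannot show how well the intervals cover it. Positions and sequences are those of GENCODE M21 (GRCm38), and no genome sequence was used here.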

Additional observations from a re-analysis of the deposited data

Results flagged for a closer look

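The total mt- share moved in opposite directions in pairs of classes with counting intervals that exclude 0, and none of these differences was tested, since each class has 1 library per genotype. The log2 ratio of germ-like minus Sertoli-like barcodes was -0.16. The Sertoli-like ratio was above the stromal one by 0.071, above the macrophage-like one by 0.067 and above the endothelial-like one by 0.13. Some of these orders turned with the processing. The macrophage-like and Sertoli-like ratios were 0.13 and 0.047 without doublets and 0.19 and 0.061 with the empty profile subtracted, but 0.0074 and 0.026 with at least 15000 UMIs. With at most 20% mt-, the endothelial-like ratio was 0.072 and the Sertoli-like one 0.055. Under the upper bounds the germ-like ratio was 0.38 and the Sertoli-like one 0.048.

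*mt-Nd1* and *mt-Nd2* were higher in *Cnot3*-cKO macrophage-like barcodes and lower in germ-like, stromal and endothelial-like ones, again untested. Both were higher in Sertoli-like barcodes too, at log2 ratios of 0.084 and 0.091. For *mt-Nd1* the germ-like ratio minus the macrophage-like one was -0.37, the stromal minus the macrophage-like one was -0.37, and the macrophage-like minus the endothelial-like one was 0.48. For *mt-Nd2* these were -0.56, -0.48 and 0.49. The macrophage-like values rest on 56 and 63 barcodes.

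Barcodes over 100 and under 8000 UMIs, of which those under 5000 entered no comparison of classes, included 1118 in *Cnot3*-cKO with over 50% mt- UMIs, 3.48% of 32138, against 1028 in control, 2.29% of 44906. Their median depth was 405 UMIs in *Cnot3*-cKO and 563 in control. *mt-Atp6* took 22.3% of their mt- UMIs in *Cnot3*-cKO and 22.9% in control, and *mt-Co3* 22.1% and 22.5%. The order of the libraries varied with depth. Up to 500 UMIs, where most of the 32138 and 44906 barcodes lie, 2.14% in *Cnot3*-cKO and 1.12% in control exceeded 50%. Over 500 and up to 1000 UMIs, 159 of 530 in *Cnot3*-cKO and 205 of 435 in control did. In the same order, the percents were 35.3% and 40.5% up to 2000 UMIs, 22.5% and 22.2% up to 4000, and 6.44% and 15.6% above that.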

How the results depend on the processing

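No paired analysis was possible because both samples of a genotype are merged in 1 matrix, and for the same reason no sample was left out. The log2 ratio of the total kept its direction in 14 of 15 alternatives in germ-like, 14 of 14 in Sertoli-like, 14 of 16 in stromal, 7 of 14 in macrophage-like, 13 of 14 in endothelial-like and 5 of 5 in empty barcodes. Some of these are not separate checks. The ratio to nuclear UMIs always moves with the share. Clustering at resolution 1.0 left the germ-like, Sertoli-like and endothelial-like values unchanged. In macrophage-like barcodes so did the limit of 20%, leaving out barcodes in both libraries and the erythroid limit. Most values moved beyond the narrow counting interval, and the cause was not tested.

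With at least 5000 UMIs the ratio was -0.086 in germ-like, 0.053 in Sertoli-like and -0.023 in endothelial-like barcodes. With at least 15000 it was -0.12 (germ-like), 0.026 (Sertoli-like), -0.020 (stromal), 0.0074 (macrophage-like) and -0.22 (endothelial-like). With at most 10% mt- it was -0.081, 0.011, -0.0034, 0.022 and -0.0076 in that order. With at most 20% it was -0.16, 0.055, -0.00018 and, in endothelial-like barcodes, 0.072. Upper bounds gave 0.38 in germ-like, 0.091 in macrophage-like and -0.12 in endothelial-like barcodes. Without doublets the values were -0.12 (germ-like), -0.029 (stromal) and 0.13 (macrophage-like). Means over barcodes gave -0.028 (germ-like), 0.045 (Sertoli-like), 0.062 (macrophage-like) and -0.033 (endothelial-like). Subtracting the empty profile gave -0.10, 0.061, 0.0053, 0.19 and -0.046 over the 5 classes. As a ratio to nuclear UMIs the values were -0.13 (germ-like), 0.052 (Sertoli-like) and -0.56 (empty). Centring on all genes gave -0.14 (germ-like), 0.010 (Sertoli-like), -0.0063 (stromal), -0.036 (macrophage-like) and -0.69 (empty). Stroma-like clusters alone gave 0.0022. Empty barcodes of at most 20, of 50 to 100 and of at most 200 UMIs gave -0.21, -0.22 and -0.24.

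Of 4 alternatives chosen after seeing the data, barcodes with at least 10 *Ddx4* and *Dazl* UMIs gave -0.13 in germ-like, and depth bins weighted as in control gave -0.089, 0.040, -0.022, 0.084 and -0.13 over the 5 classes. Leaving out a myoid-like cluster with 2 control barcodes, or barcodes over 1% erythroid UMIs, moved no total beyond its interval. By gene, *mt-Cytb* in germ-like barcodes turned to 0.24 under the upper bounds, and *mt-Nd3* in empty barcodes to 0.014 at 20 UMIs or fewer. The median of the biogenesis list in germ-like barcodes went from 0.21 to -0.16 with genes of at least 20 UMIs.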
